A study of Canis lupus familiaris with 40 samples.

Results

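Putative monocytic myeloid-derived suppressor cells (M-MDSC) from the blood of tumor-bearing dogs were compared with conventional monocytes from tumor-bearing dogs (C Mono). The comparison took every sample that GEO labels with these populations, 5 M-MDSC and 8 C Mono, which is 13 of the 40 samples in the series. The other 27 samples were used only to place the genes that changed: 3 samples of monocytes from healthy dogs (H Mono), 9 of polymorphonuclear MDSCs (PMN-MDSC) and 10 of neutrophils (C PMN) from tumor-bearing dogs, and 5 of neutrophils from healthy dogs (H PMN). All populations were sorted by flow cytometry from blood as CD11b+ cells without the T cell marker CD5 and the B cell marker CD21. M-MDSC and C Mono both came from the low-density mononuclear layer and both carried CD14, the lipopolysaccharide co-receptor of monocytes. They were separated by MHC class II, which C Mono carried and M-MDSC lacked, and M-MDSC were also gated as negative for the canine neutrophil antigen recognised by the antibody CADO48A. PMN-MDSC were CADO48A+CD14- cells of the same layer, and the neutrophils were CADO48A+ cells of the dense pellet. The study tested the suppressive activity of PMN-MDSC and not that of M-MDSC. The labels give the disease state Cancer for both groups and give no dog, age or tumor type for a sample, so it is not known whether an M-MDSC and a C Mono sample came from the same dog. The p-values below treat the samples as independent.

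MDSCs are immature or diverted myeloid cells that accumulate in cancer and restrain T cells, and they are divided into a granulocytic and a monocytic subset. Monocytes and neutrophils descend from a shared precursor. Monocytes keep antigen presentation and the ability to become macrophages, while neutrophils carry granules loaded with antimicrobial proteins and proteases, whose transcripts are made mainly during maturation in the bone marrow. A comparison of M-MDSC with monocytes therefore asks which genes set apart the CD14+ cells that lack MHC class II, and the neutrophil populations show where else those genes are used.

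M-MDSC samples held 22202374 to 41055367 counts on genes and C Mono samples 19130545 to 46120634. At least 10 counts were found for 10484 to 11936 genes per M-MDSC sample and for 11097 to 12143 genes per C Mono sample. Genes are listed by Ensembl ID without symbols, none of the 24580 IDs could be paired with a symbol here, and the sort markers were therefore not looked up among the transcripts. The labelled lineage was checked instead with 50 monocyte genes and 50 neutrophil genes taken from the healthy dogs alone. Each list held the genes with the highest mean among those at a CPM (counts scaled to the sample's total) of 50 or more in 1 lineage, at least 50-fold less in the other and without overlap between the samples. The monocyte list made up 9.19% ± 1.11 (SD, n = 5) of the TPM (a level corrected for gene length and the sample's total) in M-MDSC, against 0.148% ± 0.112 (SD, n = 10) in C PMN. On this measure the M-MDSC samples were monocytic.

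Of 11874 genes tested with edgeR's quasi-likelihood test, 90 (0.758%) differed between M-MDSC and C Mono at a false discovery rate (FDR) of at most 0.05. M-MDSC had higher levels of 60 of them (0.505% of the genes tested) and lower levels of 30 (0.253%). The genes that rose were mostly genes with higher levels in neutrophils than in monocytes of healthy dogs, and those that fell were mostly genes with lower levels. The log2 fold changes of the 60 higher genes lay between 0.67 and 3.39 with a median of 1.54. The median of the 30 lower genes was -1.27, and it was the same when the single gene without any M-MDSC count was set to its bound. Over all genes tested the median log2 fold change was -0.00. For 43 of the 60 higher genes every M-MDSC sample lay above every C Mono sample on CPM, which was seen for 83 genes (0.699%) of all tested. For 20 of the 30 lower genes every M-MDSC sample lay below every C Mono sample on CPM, against 111 genes (0.935%) of all tested. The called genes were chosen on these same samples, so their counts without overlap are in part fixed by that choice. A further 1536 genes had an unadjusted p under 0.05 in edgeR's test without passing the FDR. The samples are bulk RNA, in which more cells of a type and more RNA per cell cannot be told apart.

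How firmly a single gene was called depended on few samples. The number of genes called was 184 when M-MDSC 2 was left out, and 34, 24 and 21 when M-MDSC 3, 4 or 5 was left out. It was 56, 53, 41, 51 and 55 without C Mono 2, 4, 6, 7 or 8, and the other omissions gave 65 to 87. In each of the 13 fits that left out a sample, every one of the 90 genes that could be tested had the same direction as in the full comparison. The 90 were called on these same samples, so a kept direction is in part fixed by that choice.

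The gene with the smallest FDR was ENSCAFG00000018527. It stood at 38.8, 12.6, 14.1, 36.6 and 21.4 TPM in M-MDSC 1 to 5, against 1.49 to 4.36 TPM (median 3.21) in the 8 C Mono samples. Every M-MDSC sample lay above every C Mono and every H Mono sample, the latter at 3.69 to 7.18 TPM. The log2 fold change was 2.97 ± 0.34 (SE), a 7.86-fold difference (edgeR FDR 0.00327, n = 5 and 8). In the neutrophil populations the gene was more abundant still, with 230 ± 118 TPM (SD, n = 10) in C PMN, 219 ± 105 (SD, n = 9) in PMN-MDSC and 255 ± 59.1 (SD, n = 5) in H PMN. The M-MDSC samples thus lay between the monocytes and nearly all neutrophil samples, with the exception of C PMN 7 (9.85 TPM) and PMN-MDSC 9 (8.74 TPM), the only samples of the series with under 10000000 counts.

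The next gene that rose without overlap was ENSCAFG00000009817. Its level was 85.4, 30.2, 60.0 and 60.3 TPM in M-MDSC 1 to 4 and 85.1 TPM in M-MDSC 5, while C Mono ranged from 9.73 to 22.1 TPM (median 17.1) and H Mono held 13.8 ± 1.06 TPM (SD, n = 3). M-MDSC 2 was the lowest of its group and still lay above all monocyte samples. The log2 fold change was 1.93 ± 0.25 (SE; edgeR FDR 0.00678, n = 5 and 8), which is 3.80-fold. C PMN held 461 ± 254 TPM (SD, n = 10) and H PMN 636 ± 227 (SD, n = 5), whereas the 9 PMN-MDSC samples were spread from 1.41 to 704 TPM around a median of 89.9. The 1.41 TPM belong to PMN-MDSC 9, a shallow sample with 12 counts of this gene, and the lowest of the other 8 was 56.6 TPM. Without the shallow C PMN 7, at 1.91 TPM, C PMN held 512 ± 208 TPM (SD, n = 9).

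Among the genes that fell, ENSCAFG00000012052 had one of the smallest FDRs. It was measured at 111, 165, 95.1, 143 and 126 TPM in M-MDSC 1 to 5 and at 214 to 281 TPM (median 245) in C Mono. The groups did not overlap, and the 3 H Mono samples, at 204, 204 and 236 TPM, lay above M-MDSC, 1 of them within the C Mono range and the others just under it. The log2 fold change was -0.95 ± 0.14 (SE; edgeR FDR 0.00883, n = 5 and 8). Neutrophils held less of this transcript, 22.1 ± 13.2 TPM (SD, n = 10) in C PMN and 41.0 ± 21.0 (SD, n = 9) in PMN-MDSC.

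ENSCAFG00000030812 fell in the same way from a lower level. M-MDSC 1 to 5 held 4.88, 4.61, 3.07, 2.60 and 3.56 TPM, against 7.12 to 10.3 TPM (median 9.06) in C Mono. M-MDSC and C Mono did not overlap, and H Mono, with 4.68 to 7.22 TPM, lay between them and reached into both. The log2 fold change was -1.27 ± 0.19 (SE; edgeR FDR 0.00883, n = 5 and 8). The transcript was scarce in C PMN (0.329 ± 0.155 TPM, SD, n = 10) and in H PMN (0.235 ± 0.164 TPM, SD, n = 5). With all 40 samples in 1 fit ENSCAFG00000018527 still passed the FDR, while ENSCAFG00000009817 (log2 1.89, edgeR FDR 0.183), ENSCAFG00000012052 (log2 -0.99, edgeR FDR 0.176) and ENSCAFG00000030812 (log2 -1.30, edgeR FDR 0.289) did not. Within either library series alone none of the 4 passed the FDR, with log2 changes of 2.78, 1.84, -0.98 and -1.01 in GAR4079 and of 3.21, 2.05, -0.91 and -1.63 in PAT4694, the prefixes of the sample names, against 2.97, 1.93, -0.95 and -1.27 over both.

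**Figure D1:**
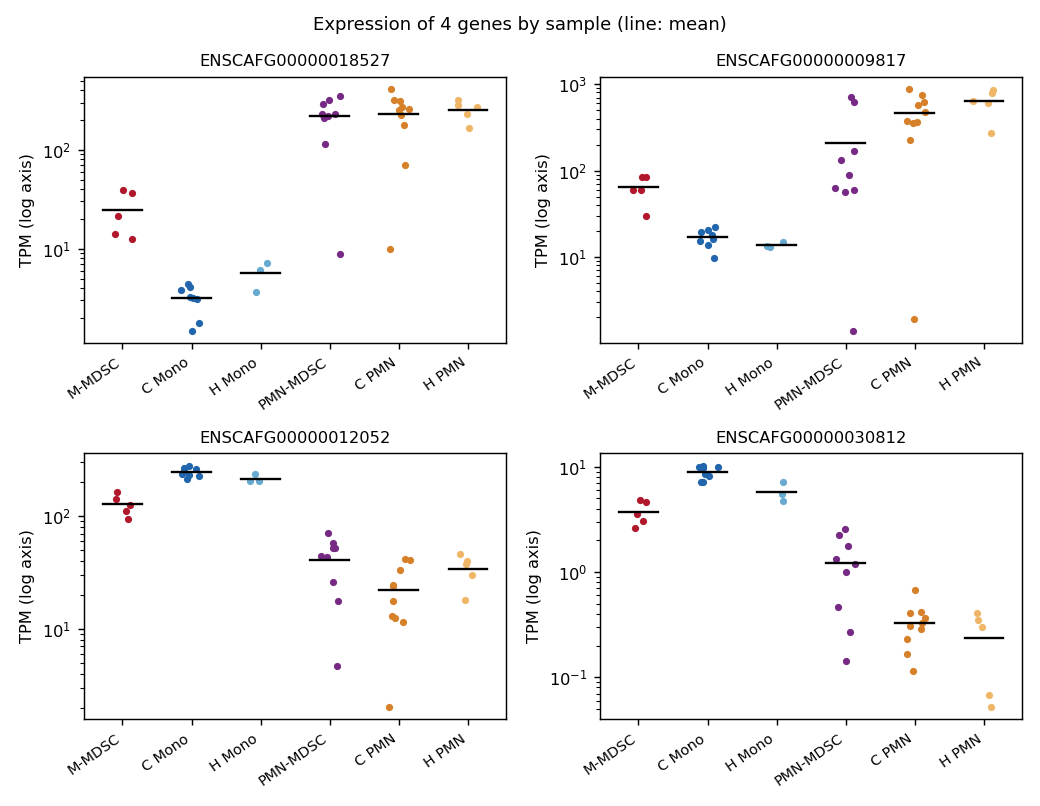
TPM of the 4 named genes in each of the 40 samples on log axes, by population, with a line at the mean. In the upper panels M-MDSC lie above all C Mono samples and below most neutrophil samples, and in the lower panels they lie below all C Mono samples and above the neutrophil means. The separation from C Mono was required in the choice of these genes.

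The genes that changed covered the whole range of abundance. The 60 higher genes had mean levels of 1.21 to 2417 TPM in M-MDSC (median 58.1) and of 0.168 to 415 TPM in C Mono (median 20.2). The 30 lower genes had a median of 4.06 TPM in M-MDSC and of 9.29 TPM in C Mono, with the highest at 1261 and 2599 TPM. Of the 1614 genes tested with a mean below 1 TPM over the 13 samples, 0.682% were called, 10 of 11 as lower. The share was 0.422% between 1 and 10 TPM, 0.860% between 10 and 100 TPM, 1.63% between 100 and 1000 TPM and 1.75% above 1000 TPM, where 3 of 171 genes were called. The list of the most abundant genes was nevertheless largely common to both populations, with 85 of the top 100 shared. Of the 100 most abundant genes of C PMN, 54 were also among the top 100 of M-MDSC and 42 among those of C Mono.

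The most abundant of the higher genes stood at 1826, 1305, 2942, 2870 and 3141 TPM in M-MDSC 1 to 5, against 145 to 866 TPM (median 333) in C Mono. Its mean of 2417 TPM placed it 57th among the genes of M-MDSC and 383rd among those of C Mono. The log2 fold change was 2.54 ± 0.44 (SE; edgeR FDR 0.0186). In C PMN it had the highest mean of all genes, 54120 TPM, and in PMN-MDSC its mean was 80804 TPM. Both means include the shallow samples. It took 14.4% of the TPM of C PMN 7 and 23.0% of PMN-MDSC 9, against group medians of 3.98% and 7.05%. Its change in PMN-MDSC against C PMN did not pass the FDR (log2 0.87, edgeR FDR 0.610). The next but one had the same shape, at 1538 TPM in M-MDSC, 294 in C Mono, 29188 in C PMN and 39006 in PMN-MDSC, and it ranked 3rd in C PMN. The difference between M-MDSC and C Mono was 3.70% of the C PMN mean, with C PMN 7 included, for the former gene and 4.26% for the latter.

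A different profile was seen for the gene that was second in abundance among those that rose. It was measured at 1745, 467, 2323, 2875 and 2511 TPM in M-MDSC 1 to 5, with M-MDSC 2 well under the others, and at 83.2 to 365 TPM (median 258) in C Mono. The log2 fold change was 3.16 ± 0.47 (SE; edgeR FDR 0.00883). Its mean of 1984 TPM in M-MDSC was close to the 1954 TPM of C PMN, while PMN-MDSC held 26535 TPM, and it also rose in PMN-MDSC against C PMN by a log2 fold change of 3.42 (edgeR FDR 0.00217).

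At the other end, the most abundant gene that fell went from 2599 TPM in C Mono to 1261 TPM in M-MDSC, a log2 fold change of -1.04 ± 0.18 (SE; edgeR FDR 0.0200). The 5 M-MDSC samples held 1089, 1424, 1339, 1018 and 1433 TPM. Among the C Mono samples C Mono 1 was far lower than the rest, with 1273 TPM against 2348 to 3055 TPM in the other 7, and it overlapped M-MDSC. C PMN held 12.5 TPM of this transcript. The gene that followed showed the same gap: 257 to 801 TPM in M-MDSC, 580 TPM in C Mono 1 and 1564 to 2583 TPM in the other C Mono samples (log2 fold change -1.61 ± 0.29, edgeR FDR 0.0261).

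Of the 30 lower genes, 10 were almost silent in M-MDSC, with means under 0.1 TPM. In C Mono these 10 reached means of only 0.303 to 1.23 TPM, from 142 to 1380 counts over the 8 samples. For 7 of them the 5 M-MDSC samples together held at most 3 counts, so the size of the change was not resolved at this depth. A single gene had no count in M-MDSC and 236 in C Mono, which is at least 45.9-fold lower when 3 counts are allowed over the M-MDSC group. The remaining 20 lower genes had log2 fold changes between -0.70 and -2.13, and 19 of them were monocyte genes by the measure that follows.

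**Figure D2:**
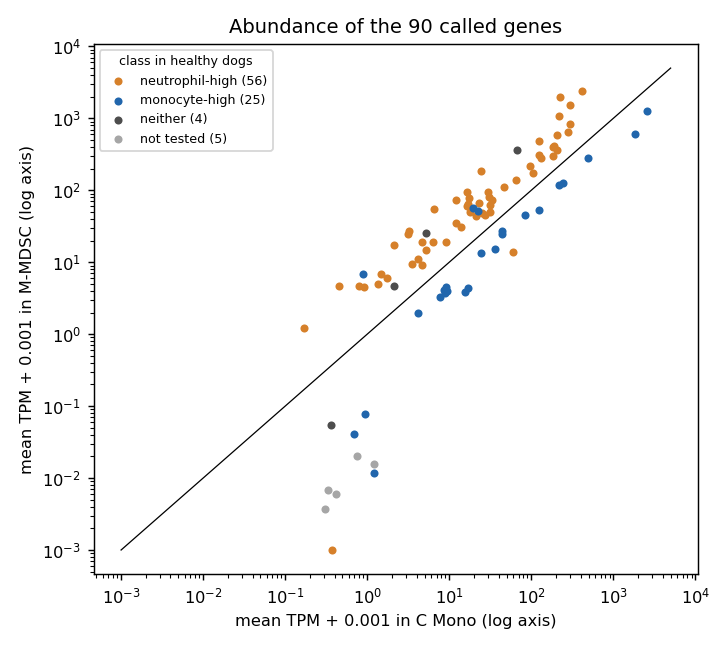
Mean TPM of the 90 called genes in C Mono and M-MDSC on log axes after adding 0.001, coloured by the class of each gene in healthy dogs, with the line of equal levels. Neutrophil-high genes make up most points above the line up to 2417 TPM, and monocyte-high genes most of those below it. The points at the lower left edge are genes with almost no M-MDSC counts.

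Each gene was given a lineage class from the healthy dogs, which take no part in the comparison and whose samples all belong to library series GAR4079. Between H PMN (n = 5) and H Mono (n = 3), 24.1% of 12557 genes were higher in neutrophils (neutrophil-high) and 29.3% higher in monocytes (monocyte-high) at an edgeR FDR of at most 0.05 and a fold change of at least 2. Of the 60 genes higher in M-MDSC, 54 were neutrophil-high, although neutrophil-high genes were 21.8% of the genes tested. That is 2.09% of the 2583 neutrophil-high genes tested, of which 2 were called lower. Of the 30 lower genes, 22 (73.3%) were monocyte-high, a class that held 30.8% of the genes tested, and 3 monocyte-high genes were called higher. Of the remaining called genes, 4 belonged to neither lineage and 5, all lower, were too scarce in the healthy samples to be tested.

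The log2 fold changes of both classes were also described without regard to the calls. Over the 2583 neutrophil-high genes tested, of 3020 in the class, the median log2 fold change in M-MDSC was 0.34, and 82.5% of them were above 0. Without the filter on low counts, which genes scarce in C Mono can pass through the M-MDSC samples alone, the median was 0.33 over 3003 genes with 78.5% above 0. At an unadjusted p under 0.05 in edgeR's test, 596 were higher and 11 lower. Over the 3652 of 3682 monocyte-high genes that were tested the median was -0.26, 23.6% were above 0, and 47 were higher and 582 lower at that p. Genes of neither lineage had a median of 0.02, with 224 higher and 135 lower at that p, and over all genes tested 871 (7.34%) were higher and 755 (6.36%) lower. By sample, the median log2 ratio of neutrophil-high genes to the C Mono mean was 0.331, 0.194, 0.333, 0.402 and 0.486 in M-MDSC 1 to 5 and -0.0506 to 0.137 in C Mono. That of monocyte-high genes was -0.152 to -0.395 in M-MDSC and -0.00875 to 0.0754 in C Mono. The groups did not overlap on either measure, and M-MDSC 2 was the nearest to C Mono on both.

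**Figure D3:**
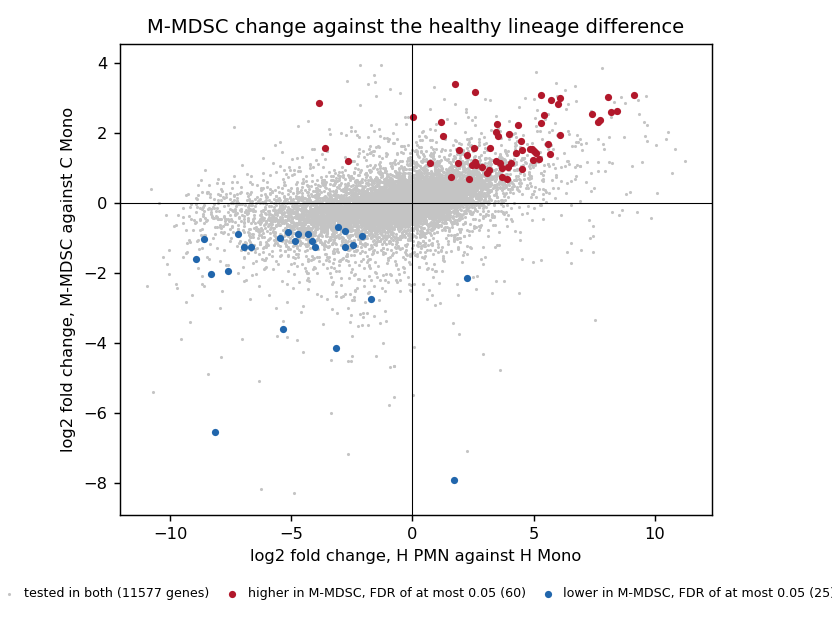
Log2 fold change of M-MDSC against C Mono for each gene, by its log2 fold change between neutrophils and monocytes of healthy dogs. The 60 genes called higher lie mostly on the neutrophil side and the lower genes mostly on the monocyte side. The 5 lower genes not tested in healthy dogs are not shown.

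The change in M-MDSC was then set against the size of the lineage difference. Genes scarce in one lineage can pass the filter on low counts through the MDSC samples alone, and of the genes above a log2 difference of 6 toward healthy neutrophils only 102 of 294 passed it in M-MDSC and C Mono. The medians that follow are therefore from fits without that filter, over every gene tested in the healthy dogs that had a count. Genes with a log2 difference of 1 to 2 toward neutrophils had a median log2 fold change of 0.20 in M-MDSC, those of 2 to 4 had 0.45, those of 4 to 6 had 0.83, and the 280 genes above 6 had 0.86 with quartiles at -0.79 and 1.92. With the filter the last of these medians was 1.31. Toward monocytes the medians were -0.18, -0.29, -0.44 and -0.47 over the same steps. Genes are not independent replicates, and these medians are descriptions.

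In the granulocytic pair the medians had the opposite signs. For PMN-MDSC against C PMN, those of the neutrophil-directed steps were -0.47, -0.80, -0.87 and -0.92, and those of the monocyte-directed steps were 0.63, 1.06, 1.23 and 1.15. Without the 2 samples of under 10000000 counts, C PMN 7 and PMN-MDSC 9, they were -0.45, -0.72, -0.89 and -0.88 on the neutrophil side and 0.57, 1.02, 1.38 and 1.46 on the monocyte side, an alternative added after the data were seen. Fold changes of genes with few counts are pulled toward 0 in these fits.

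**Figure D4:**
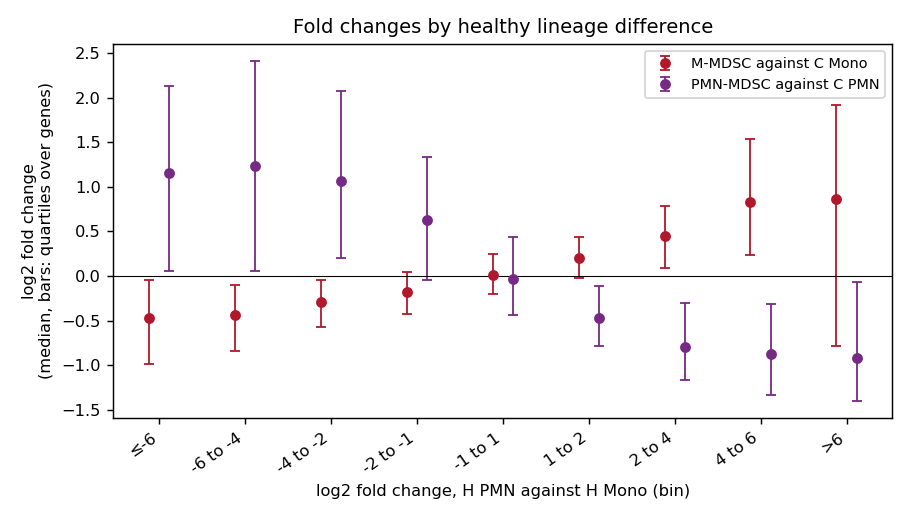
Median log2 fold change, with quartiles over genes as bars, of M-MDSC against C Mono and of PMN-MDSC against C PMN, in bins of the healthy neutrophil against monocyte difference, from fits without a filter on low counts. The M-MDSC medians go from -0.47 in the leftmost bin to 0.86 in the rightmost and the PMN-MDSC medians from 1.15 to -0.92.

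Most of the genes that rose in M-MDSC were most abundant in a neutrophil population. The highest mean TPM was in H PMN for 32 of the 60, in PMN-MDSC for 12, in C PMN for 11 and in M-MDSC for 5, against 19.6%, 8.88%, 5.90% and 16.3% of all genes tested. The M-MDSC mean lay between those of C Mono and C PMN for 51 of the 60 (85.0%), against 61.3% of all genes tested. H Mono had a lower mean than M-MDSC for all 60, as it had for 46.9% of all genes tested. For 39 of them every H Mono sample was below every M-MDSC sample, which was seen for 325 genes (2.74%) of all tested. Of the 30 lower genes, 20 had their highest mean in C Mono and 6 in H Mono, against 20.4% and 28.9% of all genes tested. All 30 were higher in H Mono than in M-MDSC on average. The lowest mean was in C PMN for 10 and in H PMN for 12, and of all genes tested 39.0% had their lowest mean in C PMN and 16.7% in H PMN. The M-MDSC and C Mono samples that chose these genes also enter the counts of this paragraph, which are in part fixed by that choice. The shares over all genes tested are not.

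The difference between M-MDSC and C Mono was set against the level in C PMN for the 54 higher neutrophil-high genes. It ranged from 3.70% to 337% of the C PMN mean, with a lower quartile of 8.94% and a median of 14.4%, or 13.2% without C PMN 7. These genes had been called for the size of that difference. For the 50 genes of the neutrophil list, which were chosen from healthy dogs and of which 7 are among the 60, the difference was between -5.16% and 12.9% with quartiles at 1.34%, 2.51% and 3.81%, and the median was 2.27% without C PMN 7.

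The neutrophil list as a whole was higher in M-MDSC. All 50 genes were tested, 7 were called higher and 0 lower, 30 had an unadjusted p under 0.05 in edgeR's test and a higher level, and none had a lower level at that p. Over all genes tested 0.505% were called higher, and 7.34% were higher and 6.36% lower at that p. The median log2 fold change was 1.75, with 48 of 50 above 0 and values from -1.41 to 3.07, against -0.00 over all genes tested. The list took 0.543%, 0.361%, 0.602%, 0.651% and 0.665% of the TPM of M-MDSC 1 to 5 and 0.0426% to 0.241% (median 0.0879%) of C Mono. Every M-MDSC sample was above every C Mono sample and above the 3 H Mono samples, at 0.0529% to 0.0940%. The mean was 5.01 times that of C Mono, and 4.34% of that of C PMN, or 4.93% without C PMN 7, while C Mono stood at 0.867% of C PMN. The most abundant gene of the list made up 0.130% to 0.314% of M-MDSC and 0.0145% to 0.0866% of C Mono. Between 1 and 2 of the 50 genes were at 0 in an M-MDSC sample and between 0 and 12 in a C Mono sample. Neutrophil transcripts thus moved together with the genes called higher, and the part of neutrophils among the sorted cells in this result was not tested.

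The monocyte list was lower in M-MDSC. Of its 50 genes 2 were called lower and 0 higher, 19 had a lower and none a higher level at an unadjusted p under 0.05 in edgeR's test, and the median log2 fold change was -0.40. Over all genes tested 0.253% were called lower, 6.36% were lower and 7.34% higher at that p, and the median was -0.00. The list took 9.01%, 10.2%, 9.81%, 7.37% and 9.53% of the TPM of M-MDSC 1 to 5, against 10.9% to 14.4% (median 13.2%) in C Mono, and the groups did not overlap. The mean was 0.698 times that of C Mono.

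**Figure D5:**
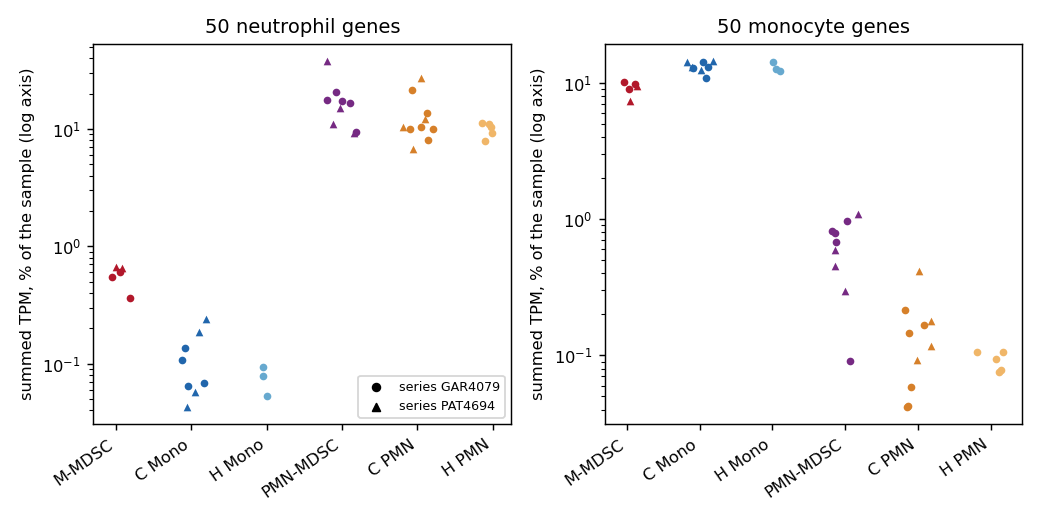
Summed TPM of the 50 neutrophil genes and the 50 monocyte genes as percent of each sample, on log axes, by population, with the library series as the symbol. M-MDSC, at 0.361% to 0.665%, lie above all C Mono samples in the left panel and far below the neutrophils, and below all C Mono samples in the right panel.

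The genes that rose in M-MDSC were then looked up in PMN-MDSC against C PMN, a comparison that shares no sample with the first and in which 8.47% of 10278 genes were higher and 1.57% lower. Of the 60 higher genes, 4 were higher in PMN-MDSC, 4 were lower and the other 52 did not pass the FDR, and the median log2 fold change was -0.65. Without C PMN 7 and PMN-MDSC 9, where 14.4% of 10436 genes were higher and 8.15% lower, the numbers were 6 higher and 23 lower, with a median of -0.67. Of the 18 lower genes that could be tested there, 4 were higher and 0 lower in PMN-MDSC, with a median of 1.11, or 7 higher and 0 lower without those samples. The other 12 were too scarce to be tested, and genes scarce in C PMN can enter this count through PMN-MDSC alone. Without the filter on low counts the median of all 30 was 1.17, with 22 above 0.

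The difference between both effects was tested in a single fit of the 32 samples from tumor-bearing dogs, in which 8.40% of 13073 genes differed, 2.55% with the higher change in M-MDSC and 5.85% with the lower. Of the 60 higher genes, 39 had a larger change in M-MDSC than in PMN-MDSC and 1 a smaller one, and of the 30 lower genes 14 had a more negative change in M-MDSC. Without the 2 shallow samples these numbers were 49, 2 and 19, and 7.24% of all genes had the higher change in M-MDSC and 10.7% the lower. The M-MDSC samples that chose the genes also enter this test, so the counts are in part fixed by that choice. For ENSCAFG00000018527 the change in PMN-MDSC was -0.27 ± 0.34 (log2, SE; edgeR FDR 0.634) and for ENSCAFG00000009817 it was -1.31 ± 0.62 (FDR 0.170). ENSCAFG00000012052 changed by 0.82 ± 0.29 (FDR 0.0730), and ENSCAFG00000030812 rose by 1.65 ± 0.44 (FDR 0.0213) in PMN-MDSC while it fell in M-MDSC.

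A few genes departed from these patterns, and they are described here after their values were seen. The gene whose log2 change differed most between the subsets, among those higher in M-MDSC, was a monocyte-high gene at 19.4 TPM in C Mono, 56.0 in M-MDSC and 413 in PMN-MDSC, against 5.88 in C PMN and 1.27 in H PMN. It rose in both MDSC subsets, by log2 1.55 (edgeR FDR 0.0473) in M-MDSC and 6.11 (edgeR FDR 8.2e-05) in PMN-MDSC. In M-MDSC 2 it was at 14.6 TPM, within the C Mono range of 10.2 to 26.6 TPM, while the other 4 M-MDSC samples held 64.3 to 68.0 TPM.

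Another gene that rose belonged to neither lineage. It held 424, 234, 657, 248 and 260 TPM in M-MDSC 1 to 5 and 17.3 to 122 TPM (median 54.5) in C Mono, without overlap, a log2 fold change of 2.44 (edgeR FDR 0.0328). Its mean of 365 TPM in M-MDSC was the highest of the 6 populations, with 37.5 TPM in C PMN, 43.6 in PMN-MDSC, 55.7 in H PMN and 83.5 in H Mono. A further gene, monocyte-high, stood at 52.3 TPM in M-MDSC, 22.6 in C Mono and 36.4 in PMN-MDSC but only 3.70 in C PMN, and rose in both subsets (log2 1.18, edgeR FDR 0.0396, and log2 3.01, edgeR FDR 0.00358). A scarce monocyte-high gene with 6.80 TPM in M-MDSC and 0.895 in C Mono owed its mean largely to M-MDSC 2, at 21.8 TPM, where the other 4 M-MDSC samples held 1.68 to 4.50 TPM. Among the genes that fell, 1 was neutrophil-high at a sizeable level. It went from 60.4 TPM in C Mono to 14.0 in M-MDSC (log2 -2.13, edgeR FDR 0.0405) and stood at 78.5 TPM in C PMN.

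The sample names carry the prefix GAR4079 or PAT4694, which was taken as a library series. M-MDSC 1 to 3 and C Mono 1 to 4 belong to GAR4079, and M-MDSC 4 and 5 and C Mono 5 to 8 to PAT4694. All H PMN and H Mono samples belong to GAR4079, so the lineage classes and both gene lists come from that series alone. With series as a term in the fit, 91 genes were called and 77 of the 90 were among them. Within GAR4079 no gene passed the FDR in edgeR's test, with 769 at an unadjusted p under 0.05, and within PAT4694 9 genes passed, 3 of them among the 90, with 1943 at an unadjusted p under 0.05. The median log2 fold change of neutrophil-high genes was 0.29 within GAR4079 and 0.41 within PAT4694, and that of monocyte-high genes was -0.23 and -0.38.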

How the data were processed

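RNA of sorted blood cells was sequenced as 75 bp read pairs from Smart-seq2 libraries. The authors aligned reads to CanFam3.1 with HISAT2, marked duplicates with Picard 1.92 and made the deposited counts with featureCounts (Subread 1.5.0) from reads mapping uniquely to exons, without normalization. CPM values (counts scaled to the sample total) and TPM values were deposited by the authors as well. Which gene length TPM used is not given in the sources used here. Spike-ins were at most 0.000275% of the counts and were left out. A table that repeats the CPM values was not used.

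Here edgeR 4.0.16 (TMM, filterByExpr, quasi-likelihood test, Benjamini-Hochberg FDR of at most 0.05 over all genes tested) was run in R 4.3.3 on the counts of the groups compared, without covariates, after a test on simulated data. Alternatives used limma 3.58.1, DESeq2 1.42.0, other scalings and filters, the library series and each sample left out. Levels are TPM, and lists were made on CPM, with pandas 2.3.3 and numpy 2.4.6 in Python 3.11.15. The counts of genes without overlap between M-MDSC and C Mono used CPM. Reads were not counted as molecules, so limits from counts cover counting error only. No pair of samples within a group came as close as counting noise (lowest chi-square over its degrees of freedom 106).

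The comparison, the lists and the tests were chosen with earlier results of these data known. The rule for named genes took, with no symbols available, 2 IDs per direction, those of lowest FDR without overlap between the groups, and other genes are described without a name, the most abundant by rule and those that depart from the pattern after their values were seen. Marker lists by symbol, the genes named by the study and sequences were not analysed here. Samples are numbered in accession order.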

Additional observations from a re-analysis of the deposited data

Results flagged for a closer look

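Of 34 groups of values examined for a sample far from the others, 2 had one, and chance alone gives about 1 in 20. The 60 genes higher in M-MDSC took 0.871% of the TPM of M-MDSC 2 and 1.46% to 1.63% of the other 4 M-MDSC samples, against 0.255% to 0.538% in C Mono. The 30 lower genes took 0.301% of the TPM of C Mono 1 and 0.568% to 0.691% of the other 7 C Mono samples, against 0.188% to 0.321% in M-MDSC. Both sets of genes were chosen on these samples. Without C Mono 1, 87 genes were called, and 71 of the 90 were among them.

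The effects in the monocytic and the granulocytic pair differed for 1098 genes in the fit of 32 samples, edgeR FDR of at most 0.05. Among the named genes the log2 change in M-MDSC minus that in PMN-MDSC was 3.22 for ENSCAFG00000018527 (edgeR FDR 0.000444), 3.21 for ENSCAFG00000009817 (FDR 0.0125), -1.79 for ENSCAFG00000012052 (FDR 0.00455) and -2.96 for ENSCAFG00000030812 (FDR 0.00126). The M-MDSC and C Mono samples that chose these genes also enter this fit, so these values are in part fixed by that choice.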

How the results depend on the processing

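The number of genes called between M-MDSC and C Mono (90) was 508 with DESeq2's Wald test, 29 with all 40 samples in 1 fit, 0 in library series GAR4079 alone and 9 in PAT4694 alone, and 21 to 184 with 1 sample left out. It was between 67 and 119 under the other alternatives. All genes of the 90 that could be tested kept their direction under every alternative, which is in part fixed because they were called on these samples. Of the higher genes in each alternative that called any, most were neutrophil-high (16 of 16 without M-MDSC 5, 224 of 278 with DESeq2's Wald test). Of the lower genes most were monocyte-high in each alternative that called any (176 of 230 with DESeq2's Wald test), except with all 40 samples in 1 fit, where 27 genes were higher and 2 lower and 0 of these 2 were monocyte-high. The median log2 fold change of monocyte-high genes moved to -0.38 in PAT4694 alone and was -0.30 to -0.25 with 1 sample left out, and that of neutrophil-high genes was 0.29 to 0.38. For PMN-MDSC against C PMN, 1919 genes were called with DESeq2's Wald test, 1954 and 0 in GAR4079 and PAT4694 alone, 2355 without the 2 samples under 10000000 counts, 2409 when these and the filter were left out and 715 to 2039 with 1 sample left out (2039 without C PMN 7, 1632 without PMN-MDSC 3), against 1032. The difference between the effects was called for 1973 genes with DESeq2's Wald test, 0 in PAT4694 alone, 2351 without those 2 samples and 613 to 2014 with 1 sample left out (2014 without C PMN 7, 1715 without PMN-MDSC 3, and 692, 613 and 661 without M-MDSC 3, 4 and 5), against 1098. The causes were not tested. For H PMN against H Mono, 6756 to 7513 genes were called with 1 sample left out, against 7600. The 4 named genes passed the FDR with each sample left out. With all 40 samples in 1 fit 3 of them missed it (0.176 to 0.289), with log2 changes of 1.89, -0.99 and -1.30. All 4 missed it in GAR4079 alone (0.43 to 0.492; log2 2.78, 1.84, -0.98 and -1.01) and in PAT4694 alone (0.0694 to 0.132; log2 3.21, 2.05, -0.91 and -1.63), against 2.97, 1.93, -0.95 and -1.27 over both, and ENSCAFG00000012052 was under a 2-fold change. No paired analysis was possible because the labels do not give the dog of a sample. Depth limits the 7 lower genes with at most 3 M-MDSC counts.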
